A study of Mus musculus with 17 samples.

Results

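The guanylate-binding proteins (Gbps) are a family of large GTPases that cells make in response to interferon. The 10 members described here (Gbp2, Gbp2b, Gbp3, Gbp4, Gbp5, Gbp6, Gbp7, Gbp8, Gbp9 and Gbp10) were taken by gene symbol from the expression table, where they held 11 of 22558 entries because 2 entries carried the name Gbp6. The family was chosen from the measured values of these same mice, since it was high in diabetic kidneys. The group differences of its members are therefore given as a description. Counts of members past a threshold stand beside the share of all genes past it, and nothing is read from them in any comparison that uses these mice.

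RNA of whole kidneys was sequenced from 17 male mice, 1 library per mouse, to compare diabetic kidneys with and without a sodium-glucose cotransporter inhibitor. Ctrl were 5 wild-type mice of the C57BL/6 strain. Case were 6 db/db mice, whose leptin receptor (Leprdb) does not signal and which become obese and diabetic. Dapa were 6 further db/db mice gavaged with 1 mg/kg/day of dapagliflozin, which blocks glucose uptake by SGLT2 in the tubule. Treatment began at 8 weeks of age and ran for 6 weeks, and Ctrl and Case mice received saline. The db/db mice were on the BKS background (BKS.Cg-Dock7m +/+ Leprdb/J) and carried Dock7m as well. Leptin receptor genotype and strain background therefore cannot be told apart in any comparison with Ctrl. In whole-tissue RNA, fewer cells of a type and less RNA per cell cannot be told apart either.

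Libraries held 13039535 to 17779635 counts. The kidney label was checked against 6 proximal tubule markers, whose summed level was 1290 to 2429 FPKM over the 17 mice. FPKM scales the fragments of a gene to its length and to the library size, so that levels can be compared between genes. Within the Case group the mice stood far apart in the family. Case 1, Case 3 and Case 5 were high, Case 2 was intermediate, and Case 4 and Case 6 were near the Ctrl level.

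Interferons bind receptors that signal through JAK kinases, and the transcription factors activated in this way bind GAS or ISRE elements in gene promoters. IRF9 and IRF1 are among the factors that recognise ISRE elements. Gbps then gather on membranes of vacuoles that hold microbes or on bacteria in the cytosol, where they open the membrane, recruit other effectors and promote inflammasome signalling. Gbp2, Gbp2b and Gbp5 carry a lipid (prenyl) anchor.

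The members lie in 2 clusters on mm10. Gbp5, Gbp7, Gbp3, Gbp2b and Gbp2 lie on the + strand at chr3:142493978-142638008, over 144 kb. Gbp8, Gbp9, Gbp4, Gbp10 and Gbp6 lie on the - strand at chr5:105014150-105293698, over 280 kb, and no other entry of the table lies inside either cluster. The second entry named Gbp6 (ENSMUSG00000079362, chr5:105214907-105293695) runs over both the Gbp10 and the Gbp6 locus. GENCODE M21 names it Gm43302, and it is called so here, whereas Gbp6 means ENSMUSG00000104713 at chr5:105270702-105293698. All 11 are annotated as protein coding.

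RefSeq promoter windows (GRCm38.p6, 250 bases before to 50 after each transcription start) were matched for 5 of the 10 symbols, all on chromosome 3. They are printed because Gbp2, Gbp3, Gbp5 and Gbp7 were high in the same Case mice and because the sequences that interferon signalling is known to use can be read in them. Capitals mark matches to the ISRE core (GAAA, any 2 bases, GAAA) or to TTCNNNGAA (GAS core, which reads the same pattern on both strands), searched on both strands, and the ISRE matches appear as their reverse complement.
Gbp5 (chr3:142496684-142496983, + strand): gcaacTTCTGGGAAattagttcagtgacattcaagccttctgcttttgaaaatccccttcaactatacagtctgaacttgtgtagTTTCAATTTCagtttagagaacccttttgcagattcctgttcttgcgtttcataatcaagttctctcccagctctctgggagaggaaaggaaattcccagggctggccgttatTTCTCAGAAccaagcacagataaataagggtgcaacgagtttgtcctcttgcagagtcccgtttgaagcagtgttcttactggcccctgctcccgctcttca
Gbp7 (chr3:142530086-142530385, + strand): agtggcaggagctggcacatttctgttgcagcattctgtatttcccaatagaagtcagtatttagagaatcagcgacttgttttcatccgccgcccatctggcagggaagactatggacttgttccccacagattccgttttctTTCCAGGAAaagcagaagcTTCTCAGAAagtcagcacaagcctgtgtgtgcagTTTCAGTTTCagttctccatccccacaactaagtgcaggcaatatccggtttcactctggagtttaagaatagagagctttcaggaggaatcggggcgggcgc
Gbp3 (chr3:142559794-142560093, + strand): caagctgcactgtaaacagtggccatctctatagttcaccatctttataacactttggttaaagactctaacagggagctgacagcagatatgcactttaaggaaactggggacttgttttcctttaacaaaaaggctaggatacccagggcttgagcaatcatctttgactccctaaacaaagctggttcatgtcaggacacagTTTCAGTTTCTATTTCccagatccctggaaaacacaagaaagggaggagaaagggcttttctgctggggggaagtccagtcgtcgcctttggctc
Gbp2b (chr3:142594597-142594896, + strand): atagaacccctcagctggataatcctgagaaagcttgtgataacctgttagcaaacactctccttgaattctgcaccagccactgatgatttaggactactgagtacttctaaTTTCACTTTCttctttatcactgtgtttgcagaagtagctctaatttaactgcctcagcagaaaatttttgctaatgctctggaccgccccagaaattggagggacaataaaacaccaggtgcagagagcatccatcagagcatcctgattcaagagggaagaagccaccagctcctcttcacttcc
Gbp2 (chr3:142620413-142620712, + strand): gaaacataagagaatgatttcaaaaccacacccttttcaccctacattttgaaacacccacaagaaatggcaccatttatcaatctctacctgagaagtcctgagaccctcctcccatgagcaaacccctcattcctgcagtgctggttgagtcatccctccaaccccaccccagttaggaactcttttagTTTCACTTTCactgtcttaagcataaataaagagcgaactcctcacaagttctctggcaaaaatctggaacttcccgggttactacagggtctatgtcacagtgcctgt
An ISRE core was found in each of the 5 windows shown. Its first base lay 59 bases before the start of Gbp2, 53 before Gbp7, 137 before Gbp2b and 165 before Gbp5. Gbp3 held 2 overlapping matches, beginning 45 and 39 bases before its start, and a second Gbp3 window at chr3:142560106-142560405 held no match to either motif. Gbp2 and Gbp2b carried the same 10 letters (TTTCACTTTC), and Gbp7 and Gbp3 shared TTTCAGTTTC. GAS cores were found in Gbp5 and Gbp7, with 2 in each and none overlapping an ISRE core. Of all 32851 windows of this length, 3.44% held the ISRE core and 8.3% the GAS core. A match describes letters only and is not evidence that a factor was bound.

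**Figure D1:**
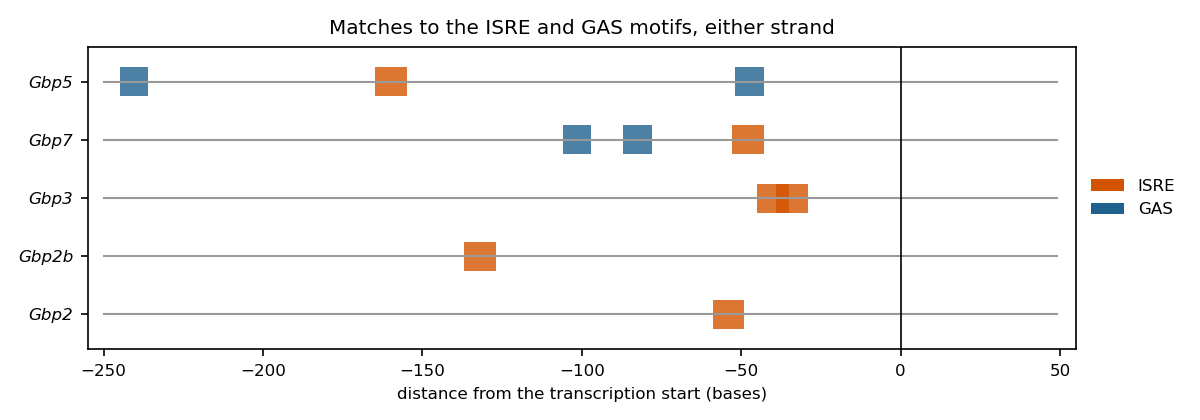
Positions of motif matches in the promoter windows of the 5 chromosome 3 genes, in bases from the transcription start (vertical line at 0). Orange boxes are ISRE cores and blue boxes GAS cores on either strand; every gene has an ISRE core upstream of its start, while GAS cores appear in Gbp5 and Gbp7.

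Gbp2, which coats pathogen vacuoles, was the most abundant member in Case. Its level was 2.76, 2.67, 3.35, 2.26 and 2.49 FPKM in Ctrl 1 to Ctrl 5. The Case mice, from Case 1 to Case 6, had 135, 7.2, 176, 2.16, 45.5 and 1.45 FPKM. The Dapa mice, from Dapa 7 to Dapa 12, had 4.94, 5.18, 1.54, 1.77, 2.01 and 2.25 FPKM. Thus 4 of the Case mice were above every Ctrl and Dapa mouse, while Case 4 and Case 6 lay below every Ctrl mouse. Dapa 7 and Dapa 8 were above the Ctrl range, and the other 4 Dapa mice were below it. The group means were 2.71 ± 0.407 (SD, n = 5) in Ctrl, 61.4 ± 76.2 (n = 6) in Case and 2.95 ± 1.66 FPKM (n = 6) in Dapa. The SD of Case exceeded its mean.

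Gbp7, a member linked to the oxidative defence of phagocytes, measured 0.508, 1.82, 1.52, 1.35 and 0.504 FPKM in the Ctrl mice. It measured 15.6, 4.1, 47.1, 2.57, 33.3 and 0.929 FPKM in Case 1 to Case 6, and 1.52, 2.07, 0.863, 2.67, 1.07 and 0.41 FPKM in Dapa 7 to Dapa 12. Here 5 of 6 Case mice exceeded all Ctrl mice, and only Case 6 fell within the Ctrl range. Gbp3 was the steadiest of the chromosome 3 genes in Ctrl, at 1.13, 1.2, 1.26, 0.985 and 1.08 FPKM. In Case 1 to Case 6 it reached 15.2, 3.24, 26.3, 0.976, 11.5 and 0.881 FPKM, so that Case 4 and Case 6 were just below the lowest Ctrl mouse. Dapa mice had 1.9, 2.33, 0.984, 1.19, 1.01 and 1.8 FPKM, and 3 of the 6 exceeded every Ctrl mouse.

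Gbp5, which takes part in assembly of the NLRP3 inflammasome, was present at a low level: 0.16 to 0.284 FPKM in Ctrl and 0.0899 to 0.276 in Dapa. In Case 1 to Case 6 it was 0.696, 0.518, 3.71, 0.246, 0.844 and 0.197 FPKM, and Case 3 stood alone at the top. Gbp2b, the gene formerly called Gbp1, was close to absent. It had 3 counts in Ctrl 3 and 0 in the other 4 Ctrl mice. In Case 1 to Case 6 it had 4, 0, 23, 1, 13 and 0 counts, and in the Dapa mice 0 or 1. A count of 3 cannot be told from 0 at this depth, so no fold change is given for Gbp2b, which also did not pass the filter on low counts.

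On chromosome 5, Gbp6 measured 0.458, 1.29, 0.624, 0.673 and 0.958 FPKM in Ctrl. It measured 32.4, 2.45, 46.6, 0.759, 26.1 and 0.386 FPKM in Case 1 to Case 6, and 1.79, 1.76, 1.08, 0.684, 0.424 and 0.501 FPKM in Dapa 7 to Dapa 12. Case 1, Case 2, Case 3 and Case 5 exceeded every Ctrl and Dapa mouse. The overlapping entry Gm43302 gave 1.84, 0.651, 2.05, 0.837 and 0.427 FPKM in Ctrl. It gave 29.4, 2.22, 79.8, 0.628, 42.9 and 0.391 FPKM in Case, where the same 4 mice were above all others, and 0.534 to 1.81 FPKM in Dapa, inside the Ctrl range.

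Gbp10 was low in several db/db mice. Ctrl mice had 0.641, 0.547, 0.451, 0.21 and 0.27 FPKM. Case 1 to Case 6 had 12.9, 0.69, 29.3, 0.179, 9.85 and 0.0266 FPKM, and Dapa 7 to Dapa 12 had 0.922, 0.338, 0.0152, 0.0835, 0.0523 and 0.0363 FPKM. As for Gbp2, 4 Dapa mice and 2 Case mice lay below every Ctrl mouse, down to a ratio of 0.0358 to the Ctrl mean in Dapa 9 against 0.57 for Gbp2 in that mouse. In counts, the 6 db/db mice concerned had 12 (Case 4), 2 (Case 6), 1 (Dapa 9), 5 (Dapa 10), 3 (Dapa 11) and 2 (Dapa 12), against 15 to 44 in Ctrl. Strain background and diabetes cannot be told apart in these low values.

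Reads of these 3 entries may have been split among them. Of the distinct 50-base stretches of GENCODE transcripts, 100% of those of Gm43302, 84.1% of Gbp10 and 70.7% of Gbp6 also occur in another gene, mostly in one another. Their single values are therefore uncertain, and their summed counts are given as well. The sums were 177 to 273 counts in Ctrl and 90 to 410 in Dapa. For Case 1 to Case 6 they were 6673, 516, 14384, 162, 7225 and 93 counts. Case 3 led the sum as it led each entry, and Case 4 and Case 6 were below every Ctrl mouse in it. The Gbp10 share of the sum was 8.47% to 18.4% in Ctrl, 2.15% to 14% in Case and 0.5% to 14.1% in Dapa.

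Gbp4, Gbp8 and Gbp9 overlap one another on the same strand, and 7.7%, 18.1% and 8.05% of their stretches are shared with other genes. Gbp4 was tight in Ctrl, at 1.1 to 1.23 FPKM, and reached 4.53, 2.63, 18.1, 1.11, 10.9 and 1.09 FPKM in Case 1 to Case 6. In Dapa, 4 mice were below every Ctrl mouse and Dapa 7 was above, in a range of 0.836 to 1.7 FPKM. Gbp9 had the smallest log2 fold change of Case against Ctrl: 0.999 to 1.36 FPKM in Ctrl, 2.45, 2.44, 9.53, 1.76, 4.92 and 1.34 in Case 1 to Case 6, and 1.37 to 1.81 in Dapa. All 6 Dapa mice were above the highest Ctrl mouse in Gbp9, the lowest of them at 1.37 against 1.36 FPKM. Gbp8 was low throughout, at 0.0872 to 0.275 FPKM in Ctrl, 0.0829 to 1.72 in Case and 0.163 to 0.414 in Dapa.

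**Figure D2:**
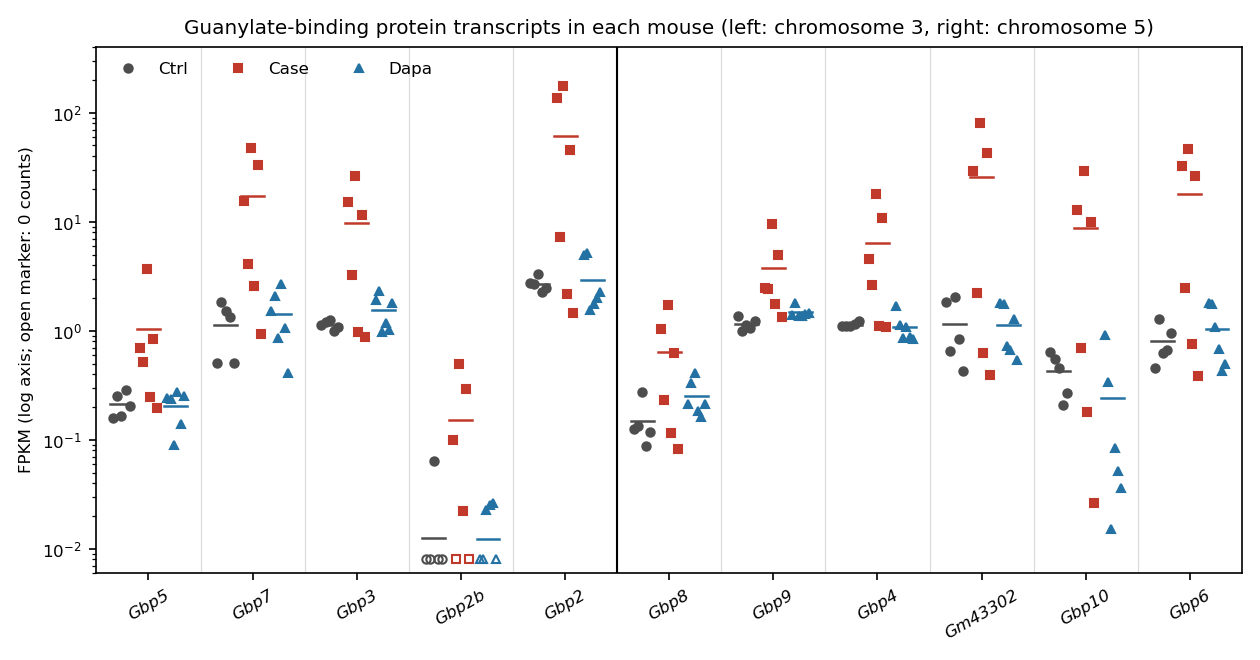
FPKM (log axis) of the 11 Gbp entries in each of the 17 mice, with Ctrl as grey circles, Case as red squares and Dapa as blue triangles; short lines are group means and open markers are mice with 0 counts. In most entries 4 Case mice rise above the Ctrl and Dapa mice, while Case 4 and Case 6 sit with Ctrl, and the Gbp10 values of 4 Dapa mice lie below all Ctrl mice.

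All 11 entries had their highest value of the 17 mice in Case 3. Among the 10 entries that passed the filter, the Case mice were ranked Case 3, Case 1, Case 5, Case 2, Case 4, Case 6 in 5 (Gbp2, Gbp3, Gbp6, Gbp8 and Gbp10) and Case 3, Case 5, Case 1, Case 2, Case 4, Case 6 in the other 5 (Gbp4, Gbp5, Gbp7, Gbp9 and Gm43302). Pairwise Pearson correlations of log2(FPKM + 1) among these 10 ranged from 0.77 to 0.99 over the 6 Case mice (median 0.94, 45 pairs). They ranged from -0.91 to 0.95 over the 5 Ctrl mice (median 0.12) and from -0.51 to 0.96 over the 6 Dapa mice (median 0.45). The members shared libraries, and some shared reads, so these values describe the mice and are not independent of one another.

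The summed level of the 11 entries was 8.5 to 12 FPKM in Ctrl and 7.97 to 16.9 FPKM in Dapa. Across Case 1 to Case 6 it was 250, 25.7, 439, 10.5, 187 and 6.78 FPKM. Case 3 held 35039 Gbp counts, or 2149 CPM (counts scaled to library size), against 53.6 to 67.3 CPM in Ctrl. The make-up of the sum moved with its size. Gbp2 took 25.1% to 29.3% of the sum in Ctrl and 17.7% to 30.6% in Dapa, and 54.2% in Case 1, 40.2% in Case 3 and 24.4% in Case 5. Gbp9 took 9.37% to 14.4% in Ctrl but 0.981%, 2.17% and 2.64% in those 3 mice, in which Gbp4 and Gbp3 also held smaller shares than in any Ctrl mouse. In Case 4 and Case 6 the Gbp9 share was 16.8% and 19.8%. Ratios to the Ctrl mean in Case 3 ran from 8.23 for Gbp9 to 69.1 for Gbp10, with 65.2 for Gbp2, 58.2 for Gbp6 and 41.3 for Gbp7. In Case 1 the ratio was 50.1 for Gbp2 and 13.7 for Gbp7. In Case 5 it was 16.8 for Gbp2 and 29.3 for Gbp7, and the highest ratio was 36.9 for Gm43302.

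**Figure D3:**
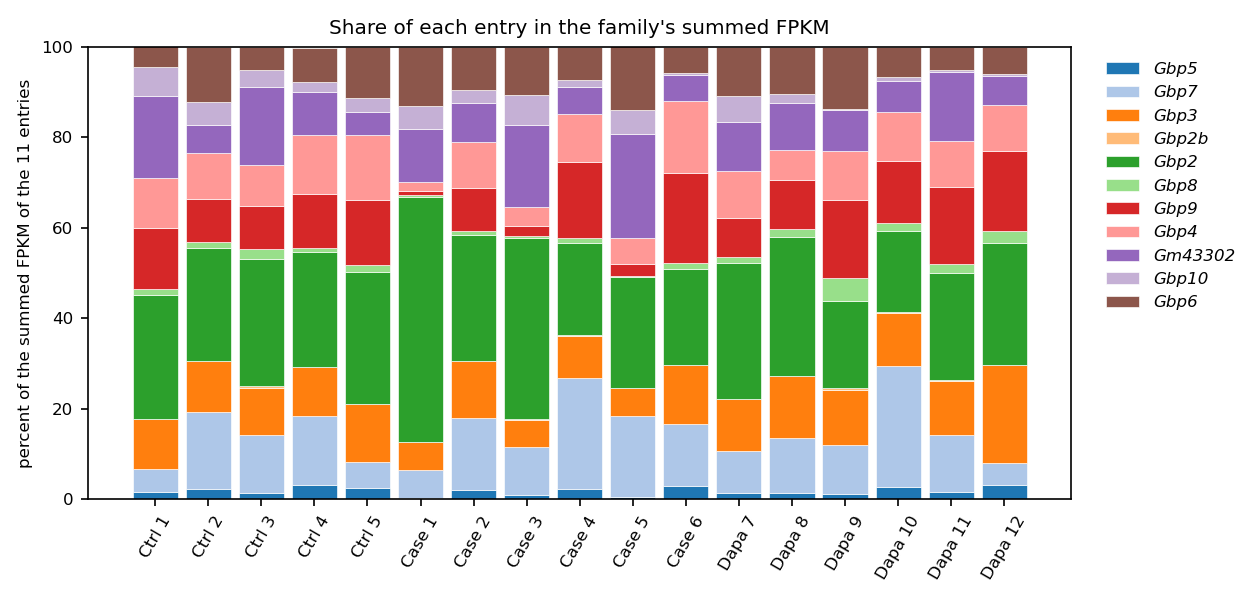
Percent of the summed FPKM of the 11 Gbp entries taken by each entry, 1 bar per mouse. The Gbp2 part (green) is widest in Case 1 (54.2%) and Case 3 (40.2%), and the Gbp9 part (red) is narrow in Case 1, Case 3 and Case 5.

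In Case against Ctrl, 9 of the 10 entries tested met the study's thresholds for differentially expressed genes (DEGs; q under 0.05 and a fold above 2 between mean FPKM, with q here from edgeR's quasi-likelihood test), all of them higher in Case, beside 2.33% of all genes tested that did so. Gbp8 did not. Since the members were picked on this contrast, nothing is read from that count. The log2 fold changes were 4.39 ± 1.10 (SE) for Gbp6, 4.38 ± 1.13 for Gbp2, 4.34 ± 1.23 for Gm43302, 4.24 ± 1.25 for Gbp10 and 3.81 ± 0.91 for Gbp7. They were 2.98 ± 0.77 for Gbp3, 2.37 ± 0.65 for Gbp4, 2.16 ± 0.66 for Gbp5, 1.98 ± 0.71 for Gbp8 and 1.58 ± 0.42 for Gbp9. The median of the 10 was 3.39, against 0.03 over all 14582 genes tested. The medians of the chromosome 3 and chromosome 5 entries were 3.39 and 3.30. In 9 of the 10 entries at least 4 of 6 Case mice exceeded the highest Ctrl mouse, which 23.2% of all genes tested also did, and no entry was without overlap. The number of entries called was unstable: it was 5 without Case 3, where every log2 fold change was at its lowest over the mice left out (1.15 for Gbp5, 3.37 for Gbp10, 3.59 for Gm43302 and 3.87 for Gbp6), and 1, 2, 1, 4 and 1 without Ctrl 1, 2, 3, 4 and 5. The share of all genes called higher moved as well, to 1.68% without Case 3 and to 1.46%, 1.49%, 1.37%, 2.78% and 1.52% without Ctrl 1, 2, 3, 4 and 5. Without Case 5 it was 2.85% (7 entries) and without Case 6 2.39% (10 entries). With a term for 7 libraries in which 3 other genes' FPKM and counts disagreed (Ctrl 1, 3 and 4, Case 1, and Dapa 10, 11 and 12), 4 entries and 1.58% of all genes were called. The entries not called with this term had log2 fold changes of 4.90 (Gm43302), 4.42 (Gbp10), 2.25 (Gbp4), 2.24 (Gbp8), 1.99 (Gbp5) and 1.48 (Gbp9).

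In Dapa against Case, all 10 entries tested were lower in Dapa. The log2 fold changes were -5.13 ± 1.31 (SE) for Gbp10, -4.49 ± 1.09 for Gm43302, -4.36 ± 1.04 for Gbp2, -4.09 ± 1.00 for Gbp6 and -3.57 ± 0.82 for Gbp7. They were -2.64 ± 0.70 for Gbp3, -2.55 ± 0.61 for Gbp4, -2.30 ± 0.62 for Gbp5, -1.33 ± 0.38 for Gbp9 and -1.30 ± 0.62 for Gbp8. The median was -3.10, against -0.01 over 14573 genes. Single mice moved these values: without Case 3 Gbp10 was at -4.28, Gm43302 at -3.75 and Gbp5 at -1.30, each the closest to 0 over the mice left out, and without Dapa 7 Gbp10 was at -6.29. By edgeR's quasi-likelihood test none of the 10, and 0 genes in all (0% of those tested), met the DEG rule. At an unadjusted p under 0.05, 9 of the 10 were lower (all but Gbp8), beside 6.66% of all genes. The count depended on the tool. With DESeq2, 9 of 11 entries fitted met the DEG rule (0.266% of 22142 genes lower), and with edgeR's exact test 8 of 10 (0.343% of 14573 genes). The Case values that chose the members enter this comparison too, so nothing is read from these counts. In 8 of the 10 entries tested 4 Case mice were above every Dapa mouse, beside 5.11% of all genes with 4 or more such mice. In Gbp2b, Gbp8 and Gbp10 3 were, and Case 4 and Case 6 lay among or below the Dapa mice in most.

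In Dapa against Ctrl, 0 of the 10 entries tested met the DEG rule, beside 7.18% of all genes in either direction. At an unadjusted p under 0.05 there were 0 of the 10, beside 41.1% of all genes. DESeq2 and the exact test also called 0. Log2 fold changes ran from -0.91 ± 0.75 (SE) for Gbp10 to 0.67 ± 0.37 for Gbp8, with 0.01 ± 0.31 for Gbp2 and 0.28 ± 0.39 for Gbp6. Without Dapa 7, the Dapa mouse with the highest Gbp10 level, Gbp10 met the DEG rule, at -2.07. Dapa 7 and Dapa 8 exceeded the highest Ctrl mouse in 6 of 11 entries each, and the other 4 Dapa mice in 1 or 2.

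**Figure D4:**
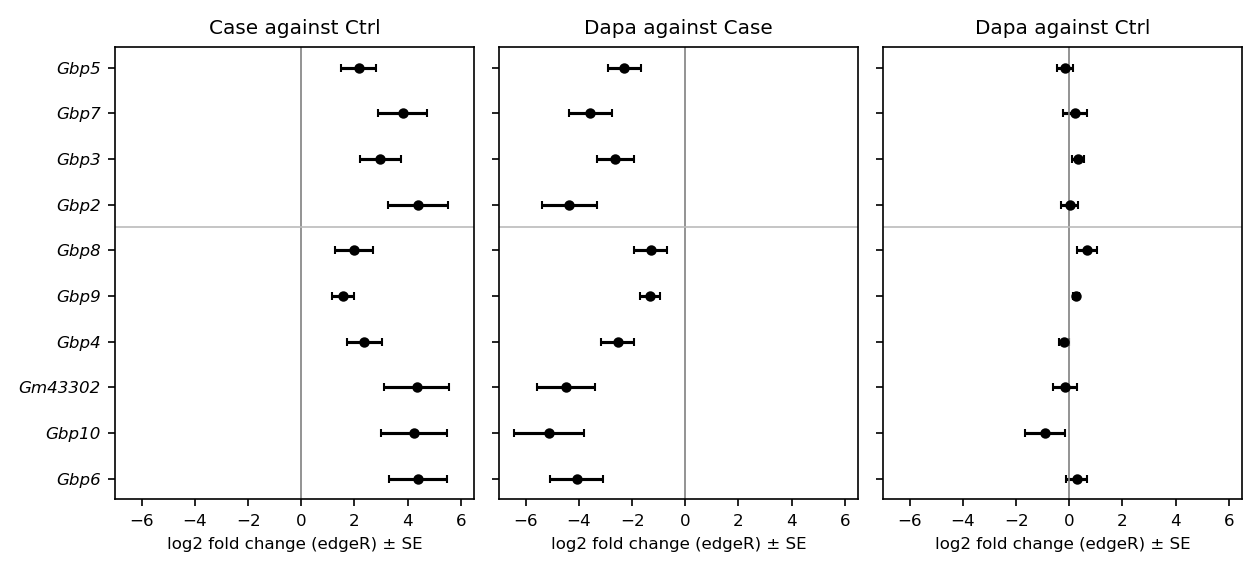
Log2 fold change of the 10 Gbp entries that passed the filter in the 3 comparisons, from edgeR, with bars of 1 SE; the grey line parts chromosome 3 (above) from chromosome 5 (below). All 10 lie above 0 in Case against Ctrl and below 0 in Dapa against Case, and between -0.91 and 0.67 in Dapa against Ctrl.

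Genes of the pathway that leads to Gbps were taken from lists and tested in the same fits. The lists were chosen with earlier results of these data known, so their calls describe these mice and are no independent test. Among the ligands, Ifng, which encodes interferon-γ, had 6 counts in Case 3, 4 in Case 5 and 1 in Case 4, and 0 in the other 14 mice, so that no level could be compared. Il18, a cytokine that drives its release, was the sole ligand tested and did not pass (0.41 ± 0.28, q = 0.365). None of the 4 interferon receptor genes was called by edgeR's quasi-likelihood test in Case against Ctrl, with 0 at an unadjusted p under 0.05, beside 28.7% of all genes. Ifngr1, the ligand-binding receptor chain, was 5.88 to 6.98 FPKM in Ctrl and 5.36 to 8.24 in Case (log2 fold change 0.00 ± 0.11, q = 0.986). None of 3 kinases was called (1 at an unadjusted p under 0.05), and Jak2 was at -0.12 ± 0.10 (q = 0.444).

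Among the transcription factors, Irf1, which is induced by interferon, was 1.01 to 2.41 FPKM in Ctrl and 5.51, 4.18, 17.3, 2.62, 10.3 and 1.45 FPKM in Case 1 to Case 6. It rose in Case against Ctrl, with a log2 fold change of 2.00 ± 0.53 (q = 0.0277). Stat2, a part of the type I interferon complex, rose as well (1.14 ± 0.32, q = 0.0375). In both genes Case 3, Case 5 and Case 1 were the highest, in that order, as in 5 of the 10 Gbp entries. Irf9, the DNA-binding part of that complex, did not pass (0.60 ± 0.32, q = 0.231), with 1.44 to 6.68 FPKM in Case against 2.1 to 2.55 in Ctrl. Socs1, an inhibitor of JAK kinases, had 43 counts in Case 3 and 20 in Case 5 and at most 16 elsewhere, and did not pass the filter on low counts. None of the 3 inhibitors tested was called, with 2 at an unadjusted p under 0.05.

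The immunity-related GTPases (IRGs) work beside Gbps on the same vacuoles. All 3 regulatory IRGs rose in Case against Ctrl. Igtp (Irgm3) was 1.91 to 3.51 FPKM in Ctrl, 45.3, 7.13, 151, 2.74, 100 and 1.91 FPKM in Case 1 to Case 6 and 2.05 to 4.57 FPKM in Dapa. The entries of Igtp and Irgm2 overlap, so the split of reads between them is uncertain. The log2 fold change of Igtp was 4.09 ± 1.03 (q = 0.0224), and that of Irgm1 was 2.90 ± 0.76 (q = 0.0256). Of 3 effector IRGs, Ifi47 rose (3.53 ± 0.99, q = 0.0342). Tgtp1 and Tgtp2 did not pass in this comparison, but both were lower in Dapa than in Ctrl (-2.04 ± 0.41, q = 0.00334, and -1.48 ± 0.40, q = 0.0146). The untreated Case 4 and Case 6 also lay below every Ctrl mouse in both genes. They had 0.446 and 0.443 FPKM of Tgtp1 (lowest Ctrl mouse 0.512) and 0.673 and 0.336 FPKM of Tgtp2 (lowest Ctrl mouse 1.14). Case 1, Case 2, Case 3 and Case 5 did not lie below the Ctrl mice. Tgtp1 and Tgtp2 were the only 2 of the 44 pathway genes tested that met the DEG rule in Dapa against Ctrl, beside 7.18% of all genes in either direction. Nothing is read from that count.

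Of 7 inflammasome genes, through which Gbps are known to act, 3 rose in Case: Pycard, the adaptor ASC (1.13 ± 0.19, q = 0.00347), Casp4, the mouse caspase-11 (1.34 ± 0.34, q = 0.023), and Gsdmd, the pore-forming gasdermin D (1.00 ± 0.26, q = 0.0254). Casp1 (0.58 ± 0.35, q = 0.294) and the DNA sensor Aim2 (-0.24 ± 0.31, q = 0.657) did not pass. In Casp4 the 2 mice low in Gbps were not low: Case 4 had 0.507 and Case 6 0.395 FPKM, above the Ctrl range of 0.118 to 0.269. Gsdmd behaved alike, at 2.76 FPKM in Case 4 and 2.82 in Case 6 against 0.771 to 2.37 in Ctrl. None of 9 genes of ATG8 conjugation, which directs Gbps to vacuoles, was called, with 1 at an unadjusted p under 0.05 (Gabarapl2 -0.00 ± 0.10, q = 0.985, and Atg5 -0.14 ± 0.10, q = 0.384). None of 5 prenylation genes was called either, with 0 at an unadjusted p under 0.05 (Fnta -0.07 ± 0.09, q = 0.632, and Pggt1b 0.02 ± 0.10, q = 0.912).

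In all, 10 of 44 pathway genes tested were called in Case against Ctrl, all higher, beside 2.33% of all genes. In Dapa against Case 0 were called by edgeR's quasi-likelihood test, with 19 at an unadjusted p under 0.05 beside 12.9% of all genes. DESeq2 called 8 lower in Dapa, beside 0.266% of the 22142 genes it fitted. The count of 10 was 6 without Case 3 and 3, 1, 1, 6 and 2 without Ctrl 1, 2, 3, 4 and 5.

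**Figure D5:**
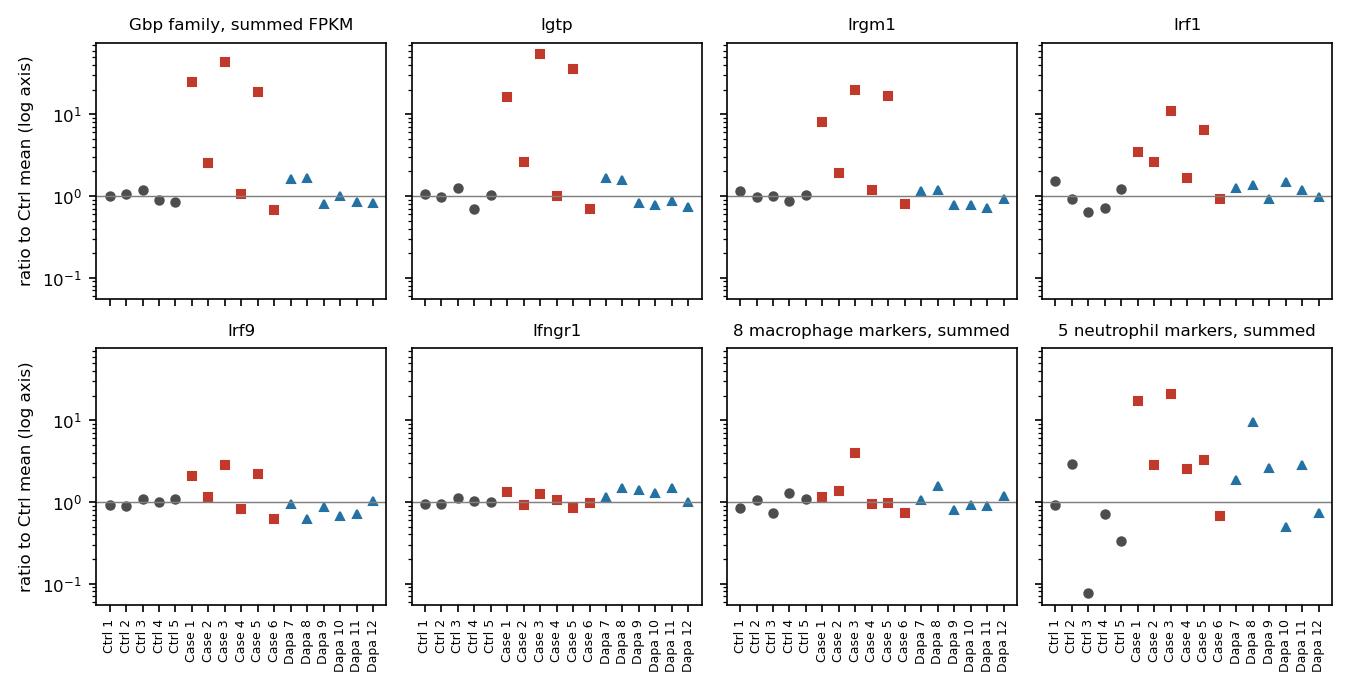
Ratio to the Ctrl mean (log axis) in each of the 17 mice for the summed Gbp FPKM, 2 IRG genes, Irf1, Irf9, Ifngr1 and the summed macrophage and neutrophil markers. Case 1, Case 3 and Case 5 stand above the line in the Gbps, Igtp, Irgm1, Irf1 and Irf9, all 17 mice lie near 1 in Ifngr1, and the macrophage markers are highest in Case 3.

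The 8 genes outside the family whose log2(FPKM + 1) followed the mean of the 10 Gbp entries most closely over the 17 mice, of 14572 genes searched, were Iigp1 (r = 0.996), Igtp (0.992), Psmb9 (0.99), Nlrc5 (0.988), Irgm1 (0.985), Irgm2 (0.984), Ciita (0.984) and Dtx3l (0.983). Over the 6 Case mice alone r was 0.977 to 0.996 for these 8, and over the 6 Dapa mice 0.745 to 0.988. Iigp1, an effector IRG, had a mean of 4.21 FPKM in Ctrl, 152 in Case and 4.85 in Dapa. Nlrc5 and Ciita encode transactivators of the class I and class II major histocompatibility genes, and Psmb9 a subunit of the immunoproteasome. The median r of all genes was 0.09, and 57 genes exceeded 0.9. These correlations rest on the same 3 or 4 high mice and are a description of them.

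None of the 12 nearest tested genes (3 on each side of each cluster) was called in Case against Ctrl or in Dapa against Case by edgeR, beside 3.79% and 0% of all genes. At an unadjusted p under 0.05 there were 3 and 2 of the 12, beside 28.7% and 12.9% of all genes, and DESeq2 called none of them either. On chromosome 3 the nearest were Pdlim5, 98.3 kb before the cluster (log2 fold change in Case against Ctrl 0.06 ± 0.09, q = 0.701), and Ccbl2, 63 kb after it (0.35 ± 0.12, q = 0.0685), followed by Bmpr1b, Unc5c, Gtf2b and Pkn2. On chromosome 5 they were Zfp951, 154 kb before (-0.41 ± 0.40, q = 0.535), and Lrrc8b, 122 kb after (-0.50 ± 0.20, q = 0.109), followed by D930016D06Rik, BC005561, Lrrc8c and Lrrc8d. Over the 12 the values ran from -0.50 to 0.38. Bmpr1b, a BMP receptor, was the sole one of the 12 called in Dapa against Ctrl (0.93 ± 0.21, q = 0.00591), beside 7.18% of all genes in either direction. That call was lost without Ctrl 5, Dapa 11 or Dapa 12.

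Markers of other cells were read in the same libraries. None of 8 macrophage markers was called in Case against Ctrl by edgeR. At an unadjusted p under 0.05 there was 1 (Itgam, 2.30 ± 0.80, q = 0.0781), beside 28.7% of all genes. A second entry named Itgam, not counted among the 8, was at -0.04 ± 0.66 (q = 0.978). Their summed level was 17.9 to 31.3 FPKM in Ctrl, 17.7 to 95.3 in Case and 19.5 to 38 in Dapa. From Case 1 to Case 6 it was 27.7, 33.2, 95.3, 22.6, 23.5 and 17.7 FPKM, so that Case 3 stood above all mice whereas Case 1 and Case 5, both high in Gbps, lay within the Ctrl range. The 5 neutrophil markers summed to 0.0605 to 2.32 FPKM in Ctrl, 0.525 to 16.4 in Case (13.4 in Case 1, 16.4 in Case 3 and 2.56 in Case 5) and 0.388 to 7.54 in Dapa. S100a9, the sole one that passed the filter, was not called (log2 fold change 2.62 ± 0.99, q = 0.0977). It had 80 counts in Case 1, 124 in Case 3 and 14 in Case 5 against 0 to 19 in Ctrl. S100a8 had 40 counts in Case 1, 46 in Case 3 and 16 in Case 5 against 0 to 2 in Ctrl. Retnlg had 24 counts in Case 1, 30 in Case 3 and 3 in Case 5 against 0 to 6 in Ctrl. Ly6g had 2 counts in Case 3 and 4 in Case 4 and 0 in the other 15 mice, and Mpo had 6 counts in Dapa 8 and 0 elsewhere. S100a8, S100a9 and Retnlg were thus highest in Case 1 and Case 3, which were also high in Gbps, and Ly6g and Mpo did not show this pattern. Dapa 8 came next in these 3 genes, with 25 counts of S100a8, 51 of S100a9 and 15 of Retnlg. Its summed Gbp level was 16.9 FPKM, against 187 FPKM in Case 5. The 10 T and NK cell markers, of which 1 passed the filter, summed to 1.23 to 2.01 FPKM in Ctrl, 0.483 to 3.35 in Case and 1.04 to 3.76 in Dapa, with 0.526 in Case 1, 3.35 in Case 3 and 1.75 in Case 5. The 4 B cell markers summed to 0.2 to 1.01 FPKM over all mice, and none passed the filter. The part of these cells in the Gbp levels was not tested.

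All 4 erythrocyte markers were called higher in Case against Ctrl, beside 2.33% of all genes. Their summed level was 54.8 to 422 FPKM in Case, 17.8 to 68.3 in Ctrl and 107 to 348 in Dapa. None of 6 endothelial markers was called, beside 3.79% of all genes, and 0 were at an unadjusted p under 0.05, beside 28.7%. Their sums were 31.8 to 51.4 FPKM in Ctrl and 35.7 to 53.1 in Case. Of 6 proximal tubule markers 2 were at q under 0.05 in Case against Ctrl, beside 13% of all genes in either direction. These were Lrp2 (-0.98 ± 0.17, q = 0.00407) and Slc22a6 (-0.84 ± 0.22, q = 0.0249), both lower. Of 4 distal nephron and collecting duct markers 1 (Aqp2) and of 4 podocyte markers 2 (Nphs1 and Podxl) were at q under 0.05, higher, beside the same 13%. Nothing is read from these counts. The adipocyte markers Adipoq and Cfd were at 9.83 and 52.4 FPKM in Ctrl 3 and at 0 in the other Ctrl mice. In Dapa 7, Dapa 10 and Dapa 11 Adipoq was at 3.11, 0.927 and 2.81 FPKM and Cfd at 3.79, 0.689 and 4.95 FPKM. Dapa 8, Dapa 9 and Dapa 12 had at most 0.0959 FPKM of either gene. In Case, Adipoq was at 0 and Cfd at most 0.332 FPKM. Fabp4 was present in all mice, at 3.22 to 21.6 FPKM. The part of all these cells in the Gbp levels was not tested either.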

How the data were processed

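Kidney RNA of 5 Ctrl, 6 Case and 6 Dapa mice was analysed from the table of 22561 genes that the authors deposited. Per the labels and the study's methods, reads were aligned to mm10 with HISAT2 and the authors made the deposited read counts with Stringtie. The authors computed the deposited FPKM values beside them. Recomputed from count, total and length, they differed by up to 0.00259% where counts exceeded 200, so they hold no TMM factor. Sirt1, Tgfb1 and Bmp4, split over 2 lines each, were left out, which left 22558.

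Groups were compared by the quasi-likelihood test of edgeR 4.0.16 under R 4.3.3, on counts with TMM scaling and the filterByExpr filter. Each comparison used its own 2 groups, and p was adjusted after Benjamini-Hochberg over all genes tested (q). The study's methods name edgeR but not which of its tests. A DEG needed q under 0.05 and mean FPKM that differed more than 2-fold. Scripts were tested on simulated counts. DESeq2, edgeR's exact test and limma on log2(FPKM + 1) and log2(FPKM + 0.1) were alternatives, with other scalings, filters and each mouse left out. The term for 7 libraries and the pathway and neighbour counts with each mouse left out were added after seeing the data. The members and lists were chosen with earlier results of these data known. A gene of the pathway lists is not reported here. Named genes were all members, set pathway genes, 3 tested neighbours on each side of each cluster and the 8 genes most correlated with the family mean. Marker genes and Il18, Stat2, Pycard, Ifi47, Irgm2, Tgtp1 and Tgtp2 were named from the lists after their values were seen. Each library is labelled as a separate mouse.

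Sequences were copied from RefSeq windows. Transcript stretches of 50 bases were compared over GENCODE M21 transcripts. Counting error limits the precision of genes with few counts, such as Gbp2b, Gbp8, Gbp10 and Ifng.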

Additional observations from a re-analysis of the deposited data

Results flagged for a closer look

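In 6 of 33 combinations of an entry and a group, the highest mouse stood apart from the rest of its group by more than Dixon's 95% critical value. Chance gives about 1 in 20 such combinations, and entries that share reads or mice are not independent. In the Case group this was Gbp5 in Case 3 (3.71 FPKM). In Ctrl 3 it was Gbp2b (0.0633 FPKM, from 3 counts against 0) and Gbp8 (0.275 FPKM). In the Dapa group it was Gbp9 in Dapa 8 (1.81 FPKM), and Gbp4 (1.7 FPKM) and Gbp10 (0.922 FPKM) in Dapa 7. The high Case mice did not stand alone in the other entries, because 3 or 4 of the 6 were high together.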

How the results depend on the processing

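In Case against Ctrl and in Dapa against Case, each entry kept its direction under every alternative in which it was tested (Gbp8 and Gbp10 were not, at 10 or more counts in every mouse). Sizes and calls were kept under some alternatives and not under others. In Case against Ctrl, Gbp2 (4.38) was at 4.41 with upper quartile scaling, 4.37 with DESeq2 and 2.47 with limma on log2(FPKM + 1). With upper quartile or median ratio scaling 9 entries were called. The number of entries called in Case against Ctrl (9) became 0 with limma on log2(FPKM + 1), with 6 at an unadjusted p under 0.05 (19.4% of all genes higher), and 0 on log2(FPKM + 0.1), with 7 (19.5%). It became 4 with the term for 7 libraries (1.58% of all genes called higher) and 1 to 10 over the mice left out (1.37% to 2.85%). With the replicate number as a block, which left out Case 6, it was 1 (0.989%). Same-numbered Ctrl and Case mice did not deviate together (correlations -0.08 to -0.05, and 0 of 5 mice correlated best with its own number), so the block pairs mice by a number only. For Dapa against Case the count (0) became 9 with DESeq2 and 8 with the exact test. For Dapa against Ctrl (0) it was 0 to 1 over the mice left out. The count of pathway genes in Case against Ctrl (10) became 3 with the term for 7 libraries and 1 to 13 over the mice left out, and in Dapa against Case (0) it became 8 with DESeq2. The count of neighbours in Dapa against Ctrl (1) was 0 to 1. Values near 0 in Dapa against Ctrl changed sign. Gm43302 (-0.16) went to 0.00 and 0.04 with limma, and to 0.10 and 0.16 without Ctrl 1 or Ctrl 3. Gbp2 (0.01) went to -0.03 with limma on log2(FPKM + 0.1), to -0.12 with the term for 7 libraries, and to -0.06, -0.02, -0.19 and -0.22 without Ctrl 4, Ctrl 5, Dapa 7 or Dapa 8. Gbp5 (-0.15) went to 0.01 without Dapa 9 and Gbp7 (0.23) to -0.04 without Dapa 10. Over all mice left out, Gm43302 ranged from -0.38 to 0.16, Gbp2 from -0.22 to 0.15, Gbp5 from -0.25 to 0.01 and Gbp7 from -0.04 to 0.48. By Spearman's rho, 5 of the 8 most similar genes were shared. The cause of these changes was not tested. The spread among Case mice and low counts in Gbp2b, Gbp8 and Gbp10 limit what can be resolved.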

Other observations

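Gbp11, a family gene of chromosome 5 that was not among the listed members, followed the same mice. It had 2, 0, 6, 0 and 5 counts in Ctrl 1 to Ctrl 5. In Case 1 to Case 6 it had 22, 0, 119, 1, 16 and 2 counts, and in Dapa 7 to Dapa 12 it had 15, 1, 0, 0, 1 and 0. Case 3, Case 1 and Case 5 were the highest of the 17 mice, and Dapa 7 came next. Gbp11 was looked at after its values were seen, and no test was made. Part of its reads may belong to other members, since its transcripts share 50-base stretches with Gbp3, Gbp4, Gbp7 and Gbp8.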
